A study of Homo sapiens with 4 samples.

Results

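The USP25 and MIR99AHG domain at 21q21 is a stretch of chromosome 21 from 17000000 to 18050000 (hg19) in which binding of HOXB13 was read from 2 deposited peak lists. Peaks counted as members when their summit lay in the stretch. The stretch was picked from the measured number of peaks in the GSK2879552 list, so that number is a description and supports nothing. It held 61 of the 68049 peaks of the GSK2879552 list and 3 of the 3507 of the vehicle list, counting autosomes and both sex chromosomes. LNCaP is an established, androgen-sensitive line of prostate cancer cells. Per the labels, the cells were in medium with 5% CSS, and the treated group received 50 µM GSK2879552, which blocks the histone demethylase LSD1, for 4 hours. The other group received vehicle, which rests on titles and descriptions, since the treatment text of all 4 samples names the inhibitor. Each treatment has 1 library run on 2 lanes, which the labels call technical replicates, and both lanes share 1 peak list. With 1 library per treatment there was no replicate and no test between treatments. Intervals given are exact 95% binomial intervals, cover counting error only and take peaks as independent.

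HOXB13 is a homeobox transcription factor that marks prostate epithelium and shares many sites with the androgen receptor and FOXA1. LSD1 removes methyl groups from lysines of histone H3 and acts in complexes with both repressing and activating roles. USP25 encodes a ubiquitin-specific protease, an enzyme that takes ubiquitin off other proteins and is known from immune signalling. MIR99AHG, also called LINC00478, is a long non-coding RNA gene that hosts 3 microRNA genes, MIR99A, MIRLET7C and MIR125B2. The miR-99 family is known for targeting mTOR, the let-7 family for targeting RAS and MYC transcripts, and miR-125b for targets in the apoptosis and p53 pathways. No RNA was measured here, so the peaks carry no information on the level of any of these transcripts.

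The 6 mature microRNAs of the 3 genes are shown because they are the best-known products of the transcript in which most peaks of the domain lay. They are from RefSeq (GRCh38.p14, chromosome 21, plus strand), run 5′ to 3′, and have the seed, bases 2 to 8, in capitals. All 3 genes were found in the RefSeq table.
hsa-miR-99a-5p: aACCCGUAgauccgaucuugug
hsa-miR-99a-3p: cAAGCUCGcuucuaugggucug
hsa-let-7c-5p: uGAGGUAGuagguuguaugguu
hsa-let-7c-3p: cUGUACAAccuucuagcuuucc
hsa-miR-125b-5p: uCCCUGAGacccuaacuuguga
hsa-miR-125b-2-3p: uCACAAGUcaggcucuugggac
The 6 microRNAs carry 6 different seeds, so no seed is shared among the products of the host transcript. In the RefSeq table the seed of hsa-let-7c-5p is shared by 10 other mature microRNAs, most of them let-7 members. That of hsa-miR-99a-5p is shared with hsa-miR-100-5p and hsa-miR-99b-5p, and that of hsa-miR-125b-5p with hsa-miR-125a-5p and hsa-miR-4319. The RefSeq coordinates are of another build than the peaks, so no distance between a peak and a microRNA was taken.

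HOXB13 peaks of the GSK2879552 list were densest in the body of MIR99AHG and the stretch before it, and were sparser in USP25. The gene body of MIR99AHG (17442842 to 17982094, 539.3 kb) held 37 of the 61 peaks, or 6.86 per 100 kb. The 190.5 kb between the genes held 14, or 7.35 per 100 kb. USP25 (17102344 to 17252377) held 4, or 2.67 per 100 kb. The 102.3 kb before USP25 held 4 and the 67.9 kb after MIR99AHG held 2, or 3.91 and 2.95 per 100 kb. MIR99AHG thus took 60.7% of the peaks and 51.4% of the length. All 3 vehicle peaks of the domain lay in MIR99AHG. In the vehicle list USP25, the stretch between the genes and both outer stretches had no peak.

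Within MIR99AHG the peaks crowded towards the 5′ end of the transcript. Cut into 3 equal parts of 179.8 kb, the gene held 17, 13 and 7 GSK2879552 peaks from its start to its end, with 2, 1 and 0 of them overlapped by a vehicle peak. Both genes are read from the plus strand, so their start is their low coordinate. The highest fold enrichment was 9.27, 6.28 and 4.64 in the 3 parts, while the medians were 3.86, 3.26 and 3.84. The longest stretch of the gene without a summit, 63.8 kb, lay in the last part and ended at the peak at 17960035 to 17960264. In the whole domain the longest one was 104.2 kb and ran from inside USP25 past its 3′ end, between the peaks at 17192444 to 17192814 and at 17296869 to 17297054.

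**Figure D1:**
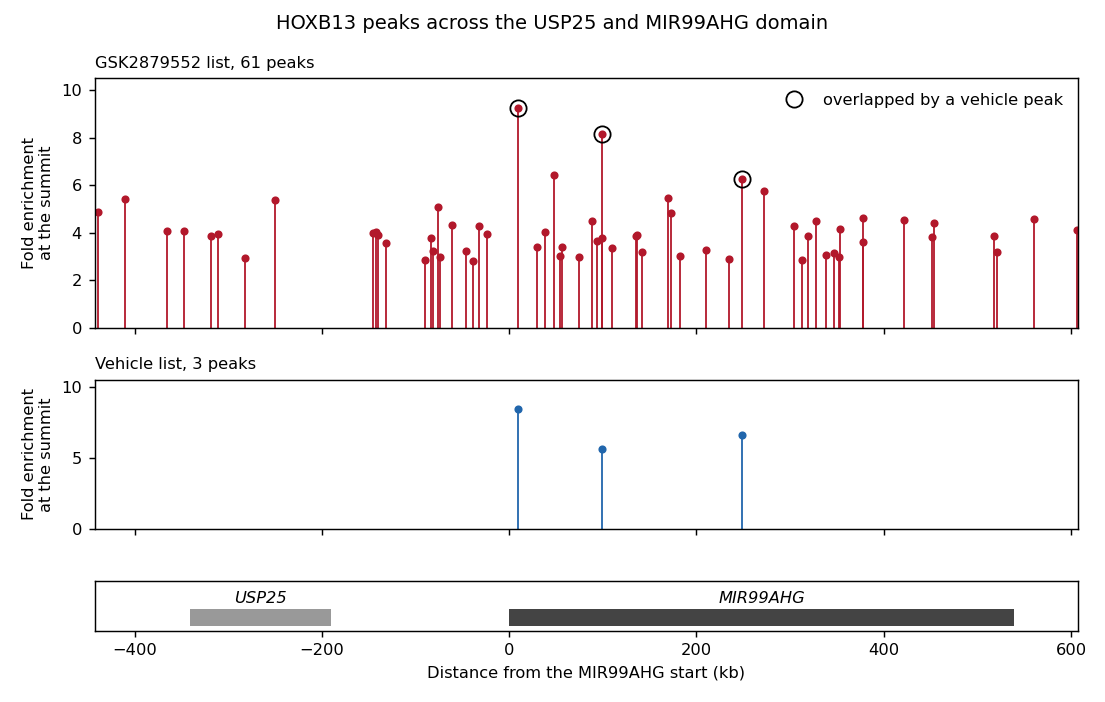
Fold enrichment at the summit (y axis) of the HOXB13 peaks of the GSK2879552 list (top, 61 peaks) and of the vehicle list (middle, 3 peaks), by distance of the summit from the MIR99AHG start in kb (x axis), with the 2 gene bodies as bars below. Circles mark the 3 GSK2879552 peaks that a vehicle peak overlaps, all in MIR99AHG, with fold enrichments of 9.27, 8.15 and 6.28.

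The 4 GSK2879552 peaks of USP25 included a pair with summits 8.39 kb apart and 2 peaks standing alone. From start to end they were enriched 3.85-fold, 3.94-fold, 2.94-fold and 5.37-fold, with 21, 17, 15 and 26 tags at the summit. The last, at 17192444 to 17192814, was the highest in both measures and at 371 bp the widest. The 14 peaks between the genes had fold enrichments from 2.82 to 5.08 and pileups from 14 to 31. The 37 of MIR99AHG spanned 2.87 to 9.27 and 14 to 84, so the gene held low peaks beside its tall ones.

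Neither gene had a peak at its start. The GSK2879552 summits nearest the USP25 start lay 7.33 kb before it, in the peak at 17094906 to 17095100 (4.07-fold), and 21.5 kb after it, in the peak at 17123746 to 17123961 (3.85-fold). For MIR99AHG they lay 23.7 kb before the start, in the peak at 17419037 to 17419175 (3.96-fold), and 9.56 kb after it, in the highest peak of the domain. The ends were as bare. The nearest summits lay 59.7 kb before and 44.6 kb after the end of USP25, and 18.8 kb before and 21.6 kb after that of MIR99AHG, in the peaks at 17963249 to 17963446 and 18003580 to 18003752. MIR99AHG has further starts inside its body, which were not placed in hg19 here.

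The 2 promoters are shown because the genes differ in base composition there, and neither had a peak at its hg19 start. They are RefSeq windows from 250 bases before to 50 after the start, plus strand, in GRCh38.p14, chr21:15729732-15730031 for USP25 and chr21:16070238-16070537 for the first of 6 windows of MIR99AHG. Capitals mark matches to any of 4 words searched on both strands.
USP25: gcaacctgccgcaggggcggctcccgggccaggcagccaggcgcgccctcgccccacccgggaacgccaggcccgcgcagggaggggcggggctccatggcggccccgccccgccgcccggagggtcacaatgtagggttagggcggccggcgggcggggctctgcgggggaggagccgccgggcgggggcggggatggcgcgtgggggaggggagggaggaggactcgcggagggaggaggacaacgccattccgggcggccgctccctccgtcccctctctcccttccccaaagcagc
MIR99AHG: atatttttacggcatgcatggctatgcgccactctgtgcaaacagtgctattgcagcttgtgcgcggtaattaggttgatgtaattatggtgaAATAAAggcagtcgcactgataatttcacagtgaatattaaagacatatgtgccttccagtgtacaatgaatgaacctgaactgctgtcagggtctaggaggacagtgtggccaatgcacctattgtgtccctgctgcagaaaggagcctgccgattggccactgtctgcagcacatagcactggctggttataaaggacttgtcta
The USP25 window is 79% G and C with 34 CG pairs, and 96.3% of the 35116 RefSeq promoter windows have a lower G and C share. The MIR99AHG window is 46% G and C with 6 CG pairs. CCAATAAA and CTCGTAAA, words taken as HOXB13 sites, were in none of the 7 windows of the 2 genes and are in 0.934% and 0.137% of all windows. The FOXA word TGTTTAC was in 1 of the 6 MIR99AHG windows and is in 3.42% of all windows. AATAAA, the last 6 letters of the first word and added to the search later, is marked in the MIR99AHG window above. It was also in the next of the 6 windows, which overlaps this one and holds the same match at the same position, so the match counts once. Of all windows, 17.4% hold the word. These matches describe letters and say nothing of binding. The peak sequences themselves were not used here, since no genome of the build was at hand.

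The highest peak of the domain, which was also 1 of the 3 seen in both lists, stood just inside MIR99AHG. In the GSK2879552 list it spanned 17452110 to 17452660, enriched 9.27-fold at a −log10 p of 54.4. Its pileup, the number of extended tags over the summit, was 84, over a local background of 8.17. By −log10 p it was rank 326 of the list, within the top 0.479%. In the vehicle list the peak at 17452210 to 17452550 was enriched 8.46-fold at a −log10 p of 14.9. That was rank 470 of the shorter vehicle list, within the top 13.4%. Its pileup was 16 over a local background of 1.01. Of the 61 GSK2879552 peaks and of the 3 vehicle peaks, it was the one with the highest fold enrichment in each list.

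The second shared peak lay 98.75 kb into the gene. In the GSK2879552 list it spanned 17541171 to 17541764, which at 594 bp made it the widest of the domain, enriched 8.15-fold with 70 tags at the summit over 7.72. The vehicle peak at 17541647 to 17541757 was enriched 5.61-fold with 10 tags over 0.96. It covered only the downstream end of the wider peak, and the 2 summits were 124 bp apart. The third shared peak lay 248.3 kb into the gene, at 17690998 to 17691276 enriched 6.28-fold with 42 tags over 5.85 in the GSK2879552 list. In the vehicle list it lay at 17691096 to 17691244 enriched 6.63-fold with 10 tags over 0.66. At the other shared peaks the summits of the 2 lists were 53 and 57 bp apart.

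The shared peaks could also be set against the genome-wide background of each list. That background is taken here as that of the library and as differing with depth, which no source states. It is the most frequent local background among the peaks of a list. Outside the domain, 4.65% of vehicle peaks were at or below it, the lowest at 0.501 times it. In the GSK2879552 list 17.9% were at it and none below. It is thus not the lowest value in the vehicle list, and the ratios given here and the later scaling rest on it. The GSK2879552 pileups were 30.1, 25.05 and 15.03 times the genome-wide background of that library, 2.79, in order of position. The vehicle pileups were 36.15, 22.6 and 22.6 times that of the vehicle library, 0.443. The ratio was thus lower in the GSK2879552 library at the first and last of the 3 and higher at the middle one. A vehicle pileup of 10 is a small count, and with 1 library per treatment none of these differences could be tested.

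Tall peaks without a vehicle partner lay between and beyond the shared ones. The peak at 17490075 to 17490487, between the first 2 shared peaks, was enriched 6.41-fold with 45 tags at the summit. It was thus taller than the third shared peak. The peaks at 17714397 to 17714783 and 17612049 to 17612260 were enriched 5.745-fold and 5.47-fold, with 41 and 39 tags. With the 3 shared peaks, these made up the 6 peaks of MIR99AHG enriched at least 5-fold. Outside the gene, 3 peaks had the highest fold enrichments. They lay at 17031934 to 17032479 before USP25 (5.44-fold), at 17192444 to 17192814 inside USP25 (5.37-fold), and at 17366318 to 17366625 between the genes (5.08-fold). By tags the tallest there was the peak at 17410181 to 17410535, with 31. The tenth by fold enrichment in the domain was its first peak, at 17003758 to 17003957 (4.86-fold). A fold enrichment of at least 5 was reached by 9 of the 61 peaks, or 14.75% (6.98 to 26.2), while the share over the whole list was 26.6%. In the 1 Mb on either side of the domain it was 13.4% (6.33 to 24.0) of 67 peaks, so the low share was not particular to the domain.

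Overlap with the vehicle list was close to that of the whole list. Of the 61 GSK2879552 peaks, 3 shared at least 1 bp with a vehicle peak, or 4.92% (1.03 to 13.7), against a share over the whole list of 4.59%. In the reverse direction all 3 vehicle peaks of the domain were overlapped, which leaves an interval of 29.2 to 100%, against 91.2% of the whole vehicle list. By pileup, 3 of 5 domain peaks of 40 or more had a vehicle peak, or 60% (14.7 to 94.7), against 47.5% (45.9 to 49.1) of the other peaks of the list. None of 5 at 30 to under 40 did (up to 52.2%), against 12.1%, none of 29 at 20 to under 30 (up to 11.9%), against 2.94%, and none of 22 under 20 (up to 15.4%), against 0.579%. At the shares of the other peaks in these classes, 3.96 of the 61 would have one. The domain's overlap was thus not distinguishable from that of other peaks of like height in these lists.

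**Figure D2:**
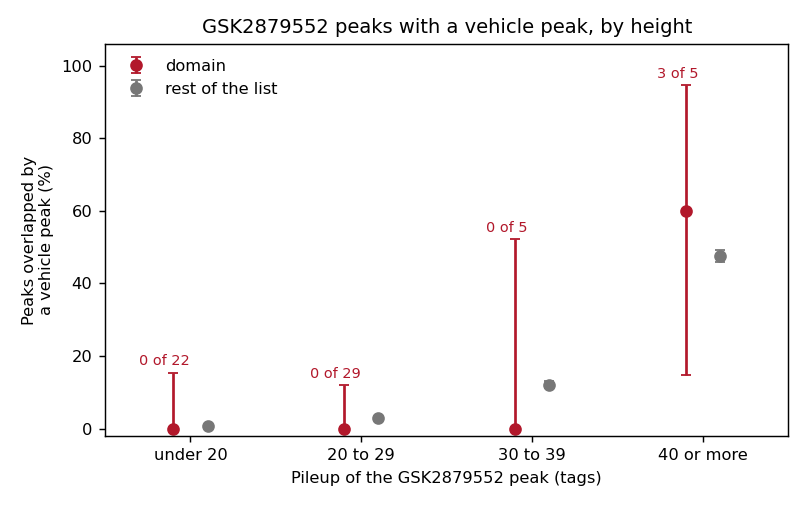
Share of GSK2879552 peaks overlapped by a vehicle peak (y axis, percent) by pileup class of the GSK2879552 peak (x axis), for the domain (red, with the counts) and for the rest of the list (grey). Bars are exact 95% binomial intervals, and those of the domain reach over the grey points in all 4 classes.

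Scaled to the vehicle background, most peaks of the domain were lower than any peak called in the vehicle list. With 1 library per treatment, depth and treatment cannot be told apart here. The genome-wide background came to 201 tags per 10 kb for GSK2879552 and 44.3 for vehicle, provided that it was taken from the immunoprecipitated libraries, which no source states. Over a summit, with the tag extension of each list, the ratio was 6.31. Divided by that ratio, the 61 GSK2879552 pileups became 2.22 to 13.3, with a median of 3.33. They were under 5, the lowest pileup called anywhere in the vehicle list, at 52 peaks, none of which had a vehicle peak. At the other 9 peaks 3 had one. All 4 GSK2879552 peaks of USP25 were among the 52. Over the rest of the list a vehicle peak was rare at such heights, though not absent. It was found at 2.94% of peaks with a pileup of 20 to under 30 and at 0.579% of those under 20. A missing vehicle peak in USP25 is thus no measure of HOXB13 at that gene.

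Peaks of the domain lay on a raised local background, most of all in MIR99AHG. The local background is the tag number in the 10 kb around a summit. If it was taken from the immunoprecipitated library, which no source states, it includes the tags of the peak and of its neighbours. A raised value may then follow in part from the number of peaks for which the domain was picked. The local background was above the genome-wide 201 tags at each of the 61 peaks, with a median of 348 tags (211 to 588). Of the other peaks of the list, 17.9% were at the genome-wide value. In MIR99AHG the median was 404 tags, 2.01 times the genome-wide value, with a range of 247 to 588. Elsewhere in the domain it was 289 tags, with a range of 211 to 514. Peaks in the 1 Mb on either side of the domain had a median of 255 tags (201 to 376), the rest of chromosome 21 had 253 and the rest of the list 245. In the 1 Mb bins most like this one in number of peaks, named below, the medians ran from 265 to 407 tags. The bin from 17 to 18 Mb had 354, so a raised background was not particular to it.

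The raised background was not spread evenly over the domain. At least 1.5 times the genome-wide value, a limit set after the values were seen, was reached by 36 of the 37 peaks of MIR99AHG. It was reached by 2 of 4 in USP25, 6 of 14 between the genes, and none of the 6 in the outer stretches. The share over the whole list was 21.7%, and 13 of the 67 peaks in the 1 Mb on either side reached it. Between the genes the values were highest in the peaks at 17404240 to 17404389, with 514 tags, and 17410181 to 17410535, with 464, both on the MIR99AHG side of that stretch. In the 3 equal parts of MIR99AHG the median was 444, 407 and 337 tags from start to end.

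**Figure D3:**
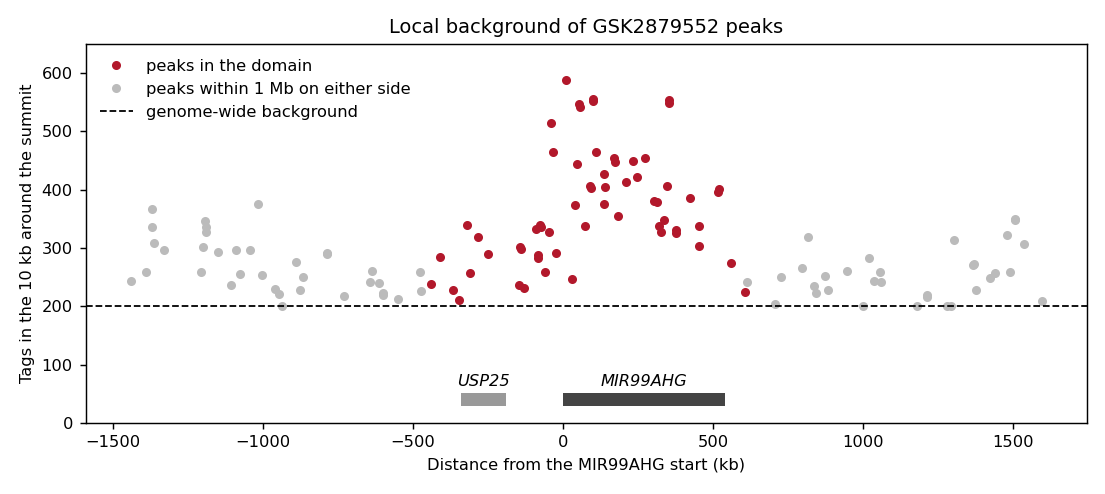
Tags in the 10 kb around each GSK2879552 summit (y axis) by distance of the summit from the MIR99AHG start in kb (x axis), for the 61 peaks of the domain (red) and the 67 peaks in the 1 Mb on either side (grey), with the gene bodies as bars and the genome-wide 201 tags as a dashed line. Peaks of MIR99AHG have a median of 404 tags, and the grey peaks of 255.

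Since the window of a summit may hold the tags of the peak itself, backgrounds were also set side by side at equal pileup. At a pileup under 20 the median was 338 tags for the 7 peaks of MIR99AHG, 283 for the 15 elsewhere in the domain and 223 for 40771 other peaks of the list. At 20 to under 30 it was 403 for 21 peaks of MIR99AHG, 295.5 for 8 elsewhere in the domain and 275 for 18681 others. In multiples of the genome-wide value, the quartiles of the others in that class were 1.18 and 1.59, and the lowest value in MIR99AHG was 1.63. At 40 or more the 5 peaks of MIR99AHG had a median of 2.26 such multiples and the 3670 others 1.955, with an upper quartile of 2.65. The 77 peaks of this class on the rest of chromosome 21 had a higher median, 2.52. At these tallest peaks the groups overlapped, with 3 of the 5 inside the quartiles of the 3670 others and 2 above them. Windows closer than 10 kb share tags. With summits at least 10 kb apart, 21 of MIR99AHG and 16 elsewhere in the domain, the medians were 396 and 280 tags. These windows share no tags, but each can still hold those of neighbouring peaks left out. The rest of the list was not thinned in this way.

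**Figure D4:**
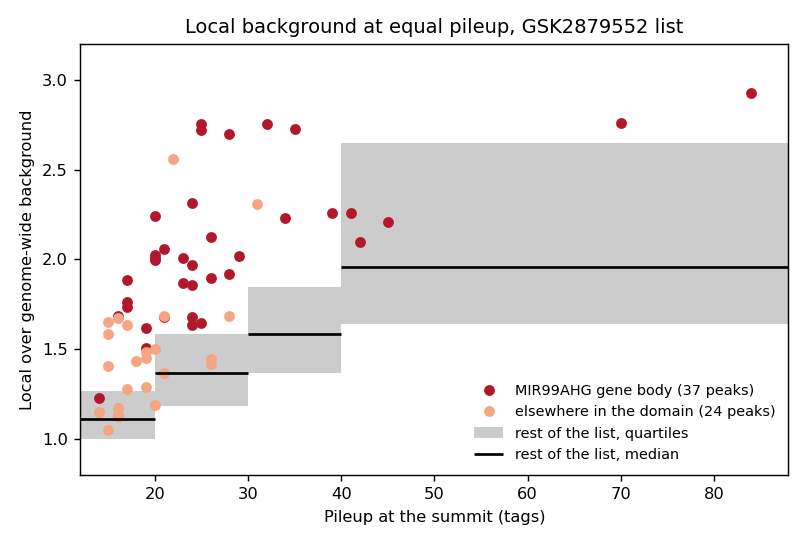
Local over genome-wide background (y axis) by pileup at the summit in tags (x axis) for the 37 GSK2879552 peaks of MIR99AHG (dark red) and the 24 elsewhere in the domain (light red). Grey bands and black lines are the quartiles and medians of the rest of the list in 4 pileup classes, and between 20 and 30 each peak of MIR99AHG lies above the band, which ends at 1.59.

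The background was also above the genome-wide value at the vehicle peaks. It was 2.28, 2.17 and 1.49 times the genome-wide value of the vehicle library at the 3 peaks, in order of position, or 101, 96 and 66 tags. At 1143 vehicle peaks elsewhere with pileups of 10 to 16, the range of the 3, the median was 1.81 and the quartiles were 1.56 and 2.11. The first 2 peaks lay above those quartiles and the last one below. The GSK2879552 values at the same 3 sites were 2.93, 2.76 and 2.095.

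A raised background bears on the fold enrichments of the domain. Each fold is relative to its own window, so at equal pileup a higher background means a lower fold. At 20 to under 30 the median fold enrichment was 3.84 in MIR99AHG and 4.98 in the rest of the list. The background was solved from the fold, so this restates the comparison at equal pileup and adds no separate observation. Over the whole domain the median was 3.89 (order-statistic interval 3.64 to 4.08) and over the rest of the list 4.22. In the 1 Mb on either side, with a median background of 255 tags, it was 4.06 (3.93 to 4.30). How far the folds of the domain go with its background was not tested. In pileup the order of the domain and the rest of the list was the other way round, with a median of 21 in the domain, 24 in MIR99AHG and 18 in the rest of the list. The −log10 p is relative to the local background, so a peak on a higher background needs a higher pileup to be listed. These medians are thus no measure of height free of the background.

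Peaks in the domain came in short runs. Neighbouring summits were a median of 9.24 kb apart (quartiles 5.39 and 28.0) in the domain and 22.6 kb (8.74 and 50.4) over the whole list. Spacing follows from the number of peaks for which the domain was picked. When summits no farther apart than the default stitching distance of the ROSE enhancer tool were joined, the domain fell into 28 runs. The largest held 8 peaks over 49.0 kb of MIR99AHG, with summits from 17746877 to 17795880, fold enrichments of up to 4.50 and no vehicle peak. Of the 45489 runs of the list, 129 held 8 or more. The next 3 had 5 peaks each. They ran from 17352991 to 17368769 between the genes, from 17472648 to 17499711 around the peak of fold 6.41, and from 17531676 to 17552253 around the second shared peak. Runs of at least 5 held 23 of the 61 peaks, or 37.7%, against 7.09% of the whole list. Standing alone were 15 peaks, or 24.6%, against 46.0% of the whole list. The shared peaks enriched 9.27-fold and 6.28-fold were among these 15. Like the spacing, both shares follow from the number of peaks for which the domain was picked.

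Peak width did not set the domain apart from the list at this number of peaks. The median was 193 bp (quartiles 161 and 279) in the domain and 199 bp (158 and 267) in the rest of the list. A width of at least 500 bp was found at 4 of the 61, or 6.56% (1.815 to 15.95), while the share over the whole list was 2.51%. These were the first 2 shared peaks, the peak at 17031934 to 17032479 before USP25, and the one at 17653438 to 17653957 in MIR99AHG, whose fold enrichment was only 3.26.

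Peaks just inside and just outside the borders of the stretch were of similar height. Just inside the lower border lay the peak at 17003758 to 17003957, with a pileup of 20, and just outside it the one at 16970691 to 16970883, 29.2 kb away, with 19. Just inside the upper border lay the peak at 18049295 to 18049480, with a pileup of 16, and just outside it the one at 18055275 to 18055458, 5.36 kb away, with 18. The 1 Mb bin from 17 to 18 Mb held 59 GSK2879552 and 3 vehicle peaks. It had a median local background of 354 tags. On the centromere side the next bin had 35 GSK2879552 peaks, no vehicle peak and a median of 258 tags. On the telomere side it had 33, 2 and 251.

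Among bins away from long peak-free intervals, those with a like number of GSK2879552 peaks differed in their vehicle peaks and backgrounds. The bin from 17 to 18 Mb on chromosome 21 shared rank 3 of 2790 bins with a bin on chromosome 12, starting at 54 Mb, and one on chromosome 3, starting at 71 Mb. The next above, on chromosome 17 at 46 Mb, held 60, and the next below, on chromosome 9 at 69 Mb, held 57. On chromosome 21, 5.085% (1.06 to 14.15) of the GSK2879552 peaks of the bin had a vehicle partner. The share was 20.3% (11.0 to 32.8) on chromosome 12, 3.39% (0.413 to 11.7) on chromosome 3, 8.33% (2.76 to 18.4) on chromosome 17 and 8.77% (2.91 to 19.3) on chromosome 9. In the same order the median local backgrounds were 354, 265, 292, 266 and 407 tags, and the median fold enrichments 3.87, 4.61, 4.05, 4.33 and 3.85. The bin with most peaks, on chromosome 11 at 23 Mb, held 72, with a vehicle partner at 8.33% (3.12 to 17.3) and a median of 337 tags, the closest of these to the 354 on chromosome 21. These differences were not tested.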

How the data were processed

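HOXB13 chromatin immunoprecipitation with sequencing was read from 1 peak list per treatment. Per the submitters' processing notes, the tools were MACS2 2.1.2, BWA 0.7.2 and SAMtools 0.1.18 (roles not stated) and the builds GRCh37 and hg19. How reads were filtered, how peaks were called and whether an input served as control is not stated there. The fold enrichment, a ratio of summit pileup to local background, is the authors' deposited value per peak. The −log10 p and −log10 q of the summit are the authors' deposited values, and the deposited score is 10 times the −log10 q cut to a whole number. The deposited summit offset gave the summit. Coordinates count from 1. Gene bounds are those of the domain's definition.

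With Python 3.11.15 and scipy 1.17.1, pileup k and local background λ were solved from the Poisson p and a fold taken as (k + 1)/(λ + 1), giving a whole k within 0.001 on the −log10 p scale for 100% of both lists; the solver and overlap routines were tested on simulated data. Backgrounds above the genome-wide one were whole tags per 10 kb within 0.05 for 100% of peaks. Ordinary bins left out sites within 2 Mb of peak-free intervals of at least 2.5 Mb and backgrounds 5 or more times the genome-wide one. Peaks off chromosomes 1 to 22, X and Y were left out. Peaks named are the vehicle peaks with partners, the 10 highest by fold, those nearest bounds, the widest and the largest runs; further ones were named after their values were seen. Members, lists and rules were chosen with earlier results of these data known. Alternatives covered thresholds, overlap and bounds.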

Additional observations from a re-analysis of the deposited data

How the results depend on the processing

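At a −log10 q of at least 5 the domain kept 32 of 61 GSK2879552 peaks, MIR99AHG 22 of 37 and USP25 2 of 4, with a median fold enrichment of 4.45. At a fold enrichment of at least 5 the numbers were 9, 6 and 1, and 33.3% (7.49 to 70.1) of the 9 had a vehicle peak. With a GSK2879552 list as long as the vehicle list, 66.7% (9.43 to 99.2) of the 3 peaks left in the domain did. Overlap rises with height over the whole list, to 47.5% of the other peaks with a pileup of 40 or more. Whole-list overlap under these filters was not taken, nor was the whole-list share at the −log10 q limit, so these shares do not set the domain apart. With summits required within 50 bp, 0 of 61 GSK2879552 and 0 of 3 vehicle peaks had a partner, since the 3 pairs lay 53, 57 and 124 bp apart. The median local background, 1.73 times the genome-wide one, was 2.01 in MIR99AHG alone and 1.465 at pileups under 20, an alternative chosen after seeing the data. The other alternatives for borders and overlap stayed within 1.5 times a count or inside the interval of a share or median. The motif search at summits was not run, since no genome of the build was at hand. No paired analysis was possible because the lanes of a treatment share 1 peak list. Vehicle counts of 3 peaks limit each statement on the vehicle list.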
